A study of Homo sapiens with 4 samples.

Results

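The transcripts described here are those of 50 DNA replication and S phase genes, taken by symbol from a fixed list that covers origin licensing, the replicative helicase, DNA polymerases, clamp loading, Okazaki fragment maturation, nucleotide supply and chromatin assembly. All 50 symbols were among the 23228 gene symbols of the count files, and all 50 were among the 14473 genes with enough reads to be tested. The RNA came from SKOV3-ALDH+ OCSCs, that is, cells of the established human ovarian cancer line SKOV3 that were sorted for high aldehyde dehydrogenase activity with the ALDEFLUOR kit and grown as spheroids without serum. Vehicle was given to 2 samples and LY500307, a selective agonist of estrogen receptor β (ERβ), to the other 2, at 5 µM, and RNA was taken at 24 h in both groups. The labels give no allele or other agent, and they do not say whether the 2 samples of a group came from separate cultures, so every p-value below measures only the spread between these samples. One sorted line stands for all OCSCs in this comparison, which asks how transcripts of the replication machinery differ after exposure to the agonist.

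Replication is prepared in G1, when the origin recognition complex, CDC6 and CDT1 load the MCM2-7 ring onto DNA in an inactive form. The kinase CDC7 and the cyclin-dependent kinases then recruit CDC45 and the GINS complex, which turns the ring into the working helicase, and polymerase α-primase, polymerase δ and polymerase ε copy the strands behind it while PCNA holds the polymerases on DNA. Many of these genes are transcribed as cells pass from G1 into S phase, under the control of E2F factors bound near their start sites. CDKN1A, which encodes the inhibitor p21, holds the cyclin-dependent kinases back and thereby restrains E2F, and high levels of replication transcripts are a usual mark of cycling cells.

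Each sample held between 28841701 and 34943882 reads counted on genes, and the 50 replication genes had between 243 and 11910 reads each per sample, so that counting error was small for all of them. Values are given as CPM, that is, counts relative to library totals scaled by TMM in edgeR. The Vehicle samples lay closer to each other than the LY500307 samples did, with a chi-square per degree of freedom of 5.23 against 44.9 over genes. Across all genes tested, the ratio of LY500307 replicate 2 to replicate 1 followed the GC content of the transcript (Spearman rho 0.23, 13606 genes that share the same libraries). Some markers of the labelled cell type were missing. PAX8 had 0 reads in every sample, KRT7 at most 1 read and KRT19 at most 2 reads, whereas EPCAM had between 6213 and 8327 reads. MUC16 had at most 6 reads, KRT8 between 9 and 33, KRT18 between 668 and 1030, and ERBB2 between 1452 and 2060. In all, 4 of 8 epithelial and ovarian carcinoma markers had at most 12 reads in each sample, and the list summed to between 283 and 330 CPM (329.6 in LY500307 replicate 1). All 5 fibroblast markers had at least 10 reads in each sample, and COL3A1, the most abundant, had between 12513 and 16716. Missing PAX8, KRT7 and KRT19 beside high collagen reads are unusual for SKOV3, so the name of the line is used here as the labels give it, and the identity of the cells was not established from these data. The summed level of the fibroblast markers was 889 and 898 CPM in the Vehicle samples and 979 and 1153 CPM in the LY500307 samples, groups that did not overlap. The collagens COL1A1, COL1A2 and COL3A1 made up nearly all of the sum and each was higher in both LY500307 samples, whereas DCN was lower in both (log2 fold change -0.20) and PDGFRB overlapped between the groups. The part of these markers in any result below was not tested. The blood cell markers summed to between 13.3 and 19.0 CPM, with 3 of 5 at or below 12 reads in each sample, and all 4 endothelial markers were at or below 12 reads. The 5 aldehyde dehydrogenase genes summed to between 79.0 and 85.4 CPM, of which ALDH2 alone made up between 61.7 and 69.1 CPM. ALDH1A2 had between 315 and 347 reads, ALDH1A3 only between 8 and 16, and ALDH3A1 only between 2 and 10. ALDH1A1 had between 134 and 185 reads, ESR1 had 0 reads in every sample, and ESR2, the gene of ERβ, had between 7 and 12 reads.

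The promoters of these genes were searched for letters that they share. RefSeq start sites on GRCh38.p14 gave a promoter window (250 bases before to 50 bases after the start) for 43 of the 50 genes. MCM4, MCM5, GINS4, POLD3, DSCC1, RPA2 and RPA3 were not matched to a window. Where a gene had several windows, the first one listed was used. Below are the 200 bases just upstream of the start, written 5′ to 3′ along the gene, for 2 MCM genes and PCNA, whose transcripts are abundant, and for 4 of the 5 genes with lower values in the LY500307 samples. Capitals mark matches to E2F letters (TTTCCCGC, TTTCGCGC, TTTGCCGC or TTTGGCGC) or to CCAAT, the box bound by NF-Y, on either strand.
MCM3, chr6:52284743-52284942, minus strand: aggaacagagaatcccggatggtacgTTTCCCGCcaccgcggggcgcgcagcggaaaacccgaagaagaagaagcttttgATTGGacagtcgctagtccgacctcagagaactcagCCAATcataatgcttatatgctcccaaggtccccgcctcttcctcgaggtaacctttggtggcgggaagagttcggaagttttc
MCM6, chr2:135876444-135876643, minus strand: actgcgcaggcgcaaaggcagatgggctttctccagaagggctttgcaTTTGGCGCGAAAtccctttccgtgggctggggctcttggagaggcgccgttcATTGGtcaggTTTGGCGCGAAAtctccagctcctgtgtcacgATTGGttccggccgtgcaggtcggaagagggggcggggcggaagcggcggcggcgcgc
PCNA, chr20:5126623-5126822, minus strand: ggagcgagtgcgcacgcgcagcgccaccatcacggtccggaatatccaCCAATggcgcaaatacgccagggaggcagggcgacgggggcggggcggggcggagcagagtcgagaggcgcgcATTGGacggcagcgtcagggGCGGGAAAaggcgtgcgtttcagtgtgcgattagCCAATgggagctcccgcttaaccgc
POLA1, chrX:24693718-24693917, plus strand: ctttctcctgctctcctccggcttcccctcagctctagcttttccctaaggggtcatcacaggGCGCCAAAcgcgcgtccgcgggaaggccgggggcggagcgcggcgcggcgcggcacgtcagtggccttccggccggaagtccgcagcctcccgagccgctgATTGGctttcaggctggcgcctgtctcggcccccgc
CDC7, chr1:91500651-91500850, plus strand: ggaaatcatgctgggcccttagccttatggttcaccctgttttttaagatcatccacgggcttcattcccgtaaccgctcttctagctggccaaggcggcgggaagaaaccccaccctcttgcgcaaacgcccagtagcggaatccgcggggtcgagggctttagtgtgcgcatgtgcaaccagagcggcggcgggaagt
RFC1, chr4:39366363-39366562, minus strand: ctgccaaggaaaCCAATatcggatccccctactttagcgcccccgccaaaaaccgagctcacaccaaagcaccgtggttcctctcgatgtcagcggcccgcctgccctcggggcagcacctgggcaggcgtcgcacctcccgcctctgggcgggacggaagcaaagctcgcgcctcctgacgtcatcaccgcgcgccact
RRM2, chr2:10122539-10122738, plus strand: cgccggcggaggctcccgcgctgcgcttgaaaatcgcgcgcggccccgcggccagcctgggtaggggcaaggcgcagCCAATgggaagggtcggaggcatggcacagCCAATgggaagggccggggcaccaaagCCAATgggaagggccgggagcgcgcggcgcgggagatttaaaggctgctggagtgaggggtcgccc

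The E2F letters were present in the first window of 18 of 43 replication genes (41.9%), compared with 908 of the 27305 genes in the table (3.33%). All 4 MCM2-7 genes with a window, MCM2, MCM3, MCM6 and MCM7, carried them, and in MCM6 a forward and a reverse match overlapped at both places. Of the primase and polymerase genes 4 of 8 carried them, of the licensing genes 3 of 7, of the helicase activation genes 3 of 6, of the clamp and clamp loader genes 2 of 6, of the single-strand binding and Okazaki maturation genes 1 of 3, of the nucleotide supply genes 1 of 5, and of the chromatin and fork protection genes 0 of 4. CCAAT was present in 23 of 43 windows (53.5%) against 35.7% of all genes, and the GC box GGGCGG in 30 (69.8%) against 44.6%. TTTCCCGC can share its last letters with a GC box on the other strand. The mitotic element CHR (TTTGAA or TTCGAA) was present in 2 of 43 windows (4.65%) against 16.6% of all genes. No replication window held the palindromic estrogen response element, GGTCA and TGACC set 3 bases apart, which only 18 of the 27305 genes (0.0659%) held in theirs. Among the genes with lower values in the LY500307 samples, POLA1 had 1 E2F match, beginning at position -137 from the start site. POLA1 also had 1 CCAAT box and 1 GC box. RRM2 had 3 CCAAT boxes and no match to the other motifs. RFC1 had 1 CCAAT box and 1 GC box, and CDC7 had none of the 5 motifs. The windows of all genes were not matched to those of the replication genes for base content, and its part in these shares was not tested. These are letter matches, and binding was not measured.

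Across the 50 replication genes the differences between LY500307 and Vehicle were small. The study's methods ask for an unadjusted p below 0.05 together with a log2 fold change beyond 0.5 in size. By these criteria the quasi-likelihood test of edgeR called 0 of the 50, while it called 669 of all 14473 genes (4.62%). The log2 fold changes of the 50 genes ran from -0.44 for CDC7 to 0.52 for RPA3, which corresponds to ratios of mean CPM between 0.737 and 1.44. The 95% interval of the fold change lay wholly between -0.5 and 0.5 for 36 of the 50 genes and reached past one of those bounds for 14.

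More of the 50 genes were lower than higher. The log2 fold change was below 0 for 32 of 50 (64.0%), against 50.0% of all genes tested, and the median over the list was -0.07, against 0.00 over all genes. In 21 of 50 genes (42.0%) both LY500307 samples lay below both Vehicle samples, an arrangement found in 24.4% of all genes, while in 3 (ORC5, POLA2 and LIG1) both lay above, an arrangement found in 24.2% of all genes. The groups overlapped for the other 26. The genes come from the same 4 libraries and are not independent of each other. The 50 genes together made up 5476 and 5442 CPM in the Vehicle samples and 5172 and 5089 CPM in the LY500307 samples. Relative to the Vehicle mean, LY500307 replicate 1 was lower for 39 of the 50 genes (median log2 ratio -0.08) and LY500307 replicate 2 for 34 (median -0.06). Over all 14473 genes tested, 7274 and 7312 were lower in these samples, with medians of -0.001 and -0.005. In bulk RNA, fewer cells in S phase and less RNA of these genes per cell cannot be told apart.

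**Figure D1:**
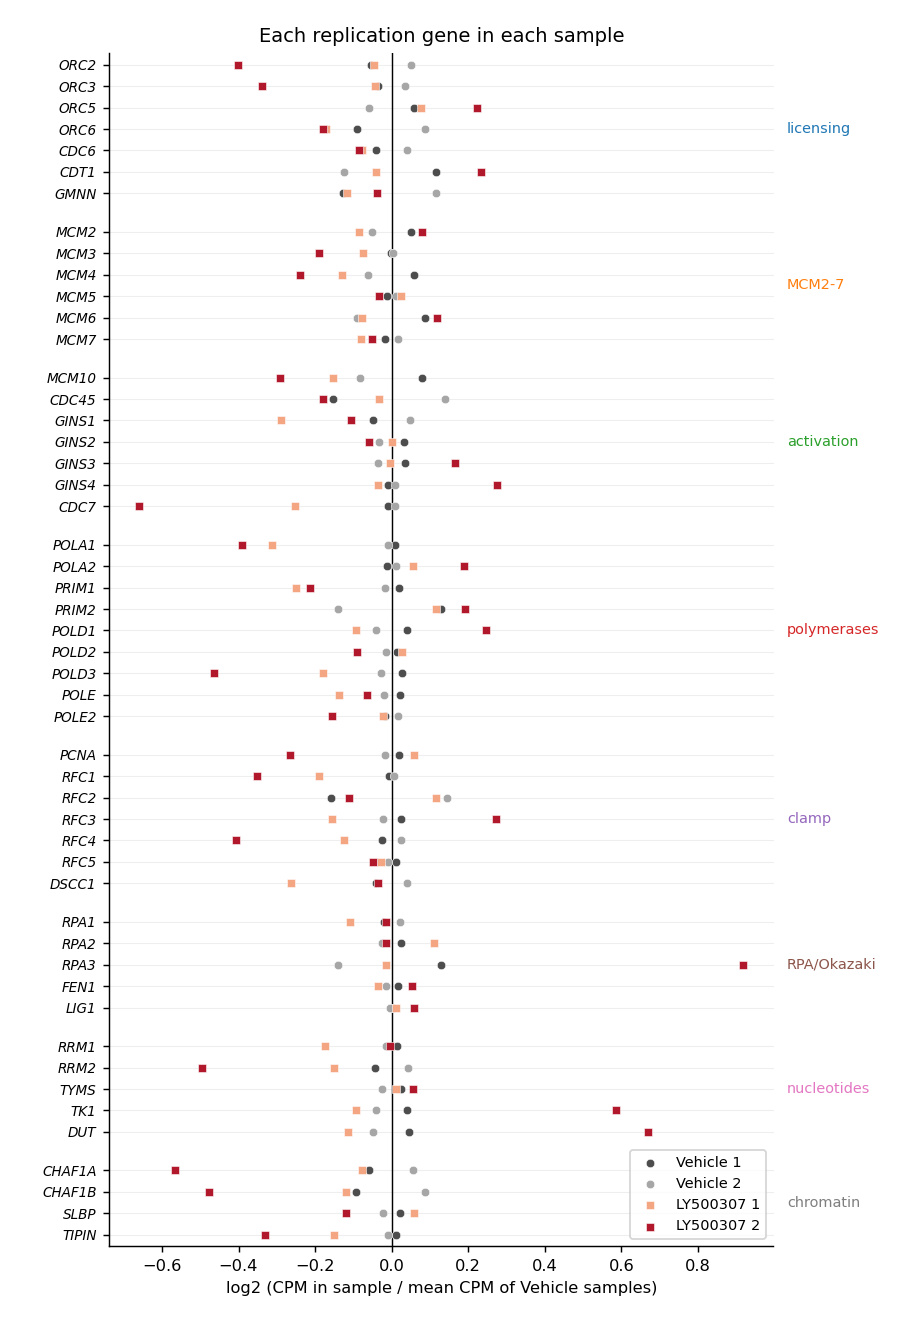
Level of each of the 50 replication genes in each sample, as the log2 ratio of CPM to the mean of the 2 Vehicle samples (horizontal axis), grouped by role. Points of LY500307 replicate 2 reach furthest on both sides, from -0.66 for CDC7 to 0.92 for RPA3, while those of LY500307 replicate 1 stay between -0.31 and 0.12.

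At an unadjusted p below 0.05 in edgeR's quasi-likelihood test, 5 of 50 genes (10%) had lower values with LY500307, namely POLA1, CDC7, RFC1, POLD3 and RRM2, against 5.50% of all genes tested, and 0 of 50 had higher values, against 6.09%. None of the 50 passed an adjusted p of 0.05, and in edgeR no gene did (0.0%), although 796 genes were lower and 882 higher at an unadjusted p below 0.05. DESeq2 passed 16 genes at an adjusted p of 0.05, none of them among the 50, and found the same number of the 50 lower. The smallest adjusted p among the 50 was 0.422 in edgeR and 0.308 in DESeq2. For 1 gene, 2 samples against 2 allow an exact two-sided permutation p no smaller than 0.333. The count of 5 depended on single samples. Without Vehicle replicate 1 or without Vehicle replicate 2 it was 0 of 50 (background 1.91% and 2.16% of genes lower), without LY500307 replicate 2 it was 9 of 50 (background 8.14%), and without LY500307 replicate 1 it was 15 of 50 with 7 more higher (background 20.6% lower and 19.8% higher). In each of these fits the sample left alone in its group was assumed to vary like the pair. After correction for GC content, CDC7 and POLA1 were the 2 genes lower at an unadjusted p below 0.05 (4.0%), against 5.05% of all genes. At that threshold the list then had no larger share of lower genes than genes at large. The log2 fold change was then below 0 for 37 of the 50, and the median was -0.068, against -0.005 over all genes.

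**Figure D2:**
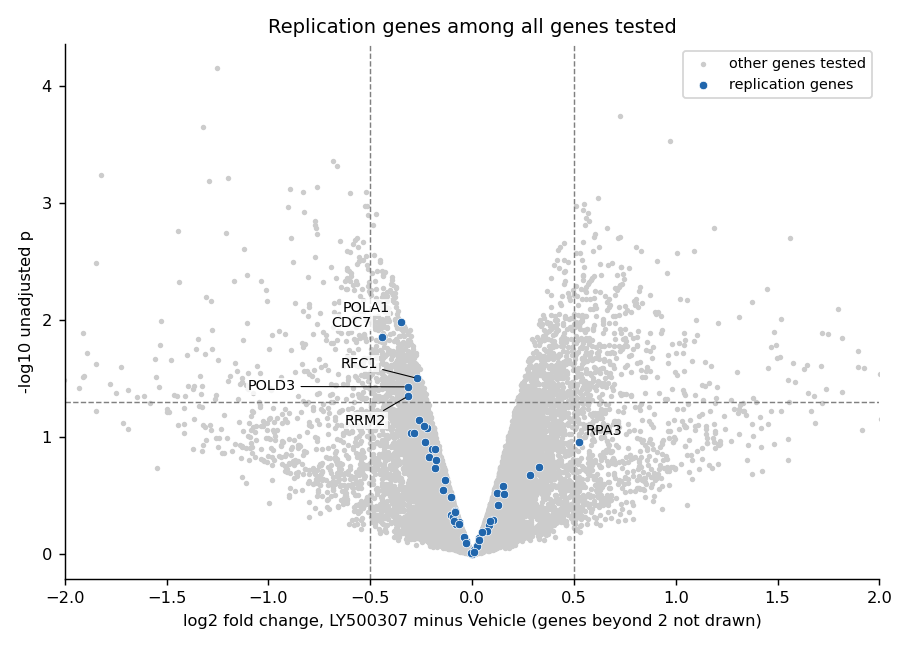
Unadjusted p (vertical axis, -log10) against log2 fold change for all genes tested (grey) and the 50 replication genes (blue), with dashed lines at the threshold of 0.05 and at fold changes of -0.5 and 0.5. No blue point lies in the upper outer areas, and the 5 labelled genes above the horizontal line all lie to the left of 0.

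The licensing genes load the helicase and keep it from being loaded again. ORC2, a core subunit of the origin recognition complex and the most abundant of these 7 by CPM, stood at 107 and 115 CPM in the Vehicle samples and at 108 and 84.2 CPM in the LY500307 samples. The groups overlapped, since only LY500307 replicate 2 lay apart (log2 fold change -0.21 ± 0.13 SE, adjusted p = 0.509 in edgeR). ORC5, another subunit, stood at 33.0 and 30.4 CPM with Vehicle and at 33.5 and 37 CPM with LY500307, a log2 fold change of 0.15 (adjusted p = 0.602 in edgeR). Its lowest LY500307 sample was within 0.5 CPM of the higher Vehicle sample. CDC6, the loading ATPase (-0.08), ORC3 (-0.18) and ORC6 (-0.18) were lower in both LY500307 samples. For ORC3, LY500307 replicate 1 (71.1 CPM) was only just below Vehicle replicate 1 (71.4 CPM). CDT1, the loading factor, had a log2 fold change of 0.10 and its inhibitor geminin (GMNN) of -0.08, with overlapping groups for both. None of the 7 had a p below 0.05, and their median was -0.08.

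The 6 subunits of the MCM2-7 ring formed the one role group in which no gene differed by more than 0.25 on the log2 scale between the LY500307 samples, and none did so between the Vehicle samples. Their summed level was 1599 and 1541 CPM with Vehicle and 1484 and 1492 CPM with LY500307. MCM4 stood at 391 and 359.7 CPM with Vehicle and at 343 and 318 CPM with LY500307, lower in both treated samples by a log2 fold change of -0.18 ± 0.11 SE (adjusted p = 0.489 in edgeR). MCM6 stood at 206 and 182 CPM with Vehicle and at 184 and 211 CPM with LY500307, so that its groups overlapped fully. Its 95% interval ran from -0.25 to 0.29, and that of MCM2, whose log2 fold change was 0.00, from -0.25 to 0.25. MCM3 (-0.13) and MCM7 (-0.07) were lower in both LY500307 samples, and MCM5 was -0.00. The intervals of all 6 thus lay inside -0.5 to 0.5.

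Helicase activation held the gene with the most negative log2 fold change of the 50. CDC7, the catalytic subunit of the kinase that phosphorylates loaded MCM complexes, lies at chr1:91966408-91991321 on the plus strand (GRCh37, GENCODE annotation). It stood at 101.1 and 102.5 CPM with Vehicle and at 85.5 and 64.5 CPM with LY500307. The Vehicle samples nearly coincided, both LY500307 samples lay below them, and the LY500307 samples differed from each other by more than replicate 1 did from Vehicle. Its log2 fold change was -0.44 ± 0.14 SE (95% interval -0.77 to -0.12, adjusted p = 0.422 in edgeR). Leaving out LY500307 replicate 2 gave a log2 fold change of -0.25, and leaving out replicate 1 gave -0.66.

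MCM10, which bridges the helicase and polymerase α, was lower in both LY500307 samples (-0.22, adjusted p = 0.445 in edgeR), as was GINS1 (-0.20, adjusted p = 0.488 in edgeR). CDC45 (-0.10), GINS2 (-0.03) and GINS3 (0.08) had overlapping groups. GINS4 stood at 39.1 and 39.5 CPM with Vehicle and at 38.3 and 47.6 CPM with LY500307. Only LY500307 replicate 2 was higher there, and the log2 fold change of 0.13 had an adjusted p = 0.689 in edgeR. Within the GINS complex, GINS1 and GINS4 thus lay on opposite sides of 0, each interval included 0, and their difference was not tested.

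Polymerase α-primase lays down the RNA-DNA primers. POLA1, its catalytic subunit, lies at chrX:24711990-25015103 on the plus strand (GRCh37). It stood at 63.5 and 62.7 CPM with Vehicle and at 50.9 and 48.1 CPM with LY500307. Here both pairs were tight and well apart, with a log2 fold change of -0.35 ± 0.11 SE (95% interval -0.59 to -0.11, adjusted p = 0.422 in edgeR). It became -0.31 when LY500307 replicate 2 was left out and -0.39 when replicate 1 was, a narrower range than for the other 4 lower genes. Its partner POLA2 was higher in both LY500307 samples (0.12, adjusted p = 0.635 in edgeR). Of the primase subunits, PRIM1 was lower in both LY500307 samples (-0.23, adjusted p = 0.473 in edgeR), whereas PRIM2 stood at 26.9 and 22.3 CPM with Vehicle and at 26.7 and 28.2 CPM with LY500307 (0.16, adjusted p = 0.641 in edgeR), with overlapping groups.

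The replicative polymerases followed. POLD3, an accessory subunit of polymerase δ (chr11:74204896-74380162, plus strand, GRCh37), stood at 66.2 and 63.8 CPM with Vehicle and at 57.4 and 47.1 CPM with LY500307. Both LY500307 samples were lower, replicate 2 more so, with a log2 fold change of -0.32 ± 0.13 SE (adjusted p = 0.428 in edgeR). The catalytic subunit POLD1 (0.09) and the small subunit POLD2 (-0.03) had overlapping groups. POLE, the catalytic subunit of polymerase ε and the highest of the 9 by CPM, stood at 159.9 and 155 CPM with Vehicle and at 143 and 150.5 CPM with LY500307, lower in both treated samples by a small margin (-0.10, adjusted p = 0.65 in edgeR). POLE2 was -0.09.

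PCNA, the sliding clamp, stood at 281 and 274 CPM with Vehicle and at 289 and 231 CPM with LY500307. The treated samples lay on opposite sides of the Vehicle samples (log2 fold change -0.10 ± 0.13 SE, adjusted p = 0.757 in edgeR). RFC1, the large subunit of the loader that opens PCNA and places it at primers (chr4:39289076-39367995, minus strand, GRCh37), stood at 173 and 174.6 CPM with Vehicle and at 152 and 136 CPM with LY500307. Both treated samples were below a tight Vehicle pair, with a log2 fold change of -0.27 ± 0.10 SE (adjusted p = 0.422 in edgeR). Of the small loader subunits, RFC4 was lower in both treated samples (-0.26, adjusted p = 0.439 in edgeR), RFC5 was -0.04 and RFC2 0.01. RFC3 stood at 84.8 and 82.1 CPM with Vehicle and at 74.9 and 100.8 CPM with LY500307, again with the treated samples on either side (0.07, adjusted p = 0.839 in edgeR). DSCC1, a subunit of the alternative loader used in sister chromatid cohesion, was -0.14.

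The genes for single-strand binding and Okazaki fragment maturation were the role group with no gene lower in both treated samples. RPA1, the large subunit of the single-strand binding protein RPA, stood at 206.5 and 213 CPM with Vehicle and at 194 and 207 CPM with LY500307 (-0.06, adjusted p = 0.799 in edgeR). RPA3, its smallest subunit, had the widest interval of the 50 genes. It stood at 10.3 and 8.55 CPM with Vehicle and at 9.34 and 17.8 CPM with LY500307. The fold change of 0.52 ± 0.29 SE (95% interval -0.15 to 1.20, adjusted p = 0.473 in edgeR) rested on LY500307 replicate 2, and was -0.01 without it. The flap endonuclease FEN1 (0.01), RPA2 (0.05) and DNA ligase LIG1 (0.04) had intervals inside -0.5 to 0.5.

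Nucleotide supply held values in both directions. RRM2, the small subunit of ribonucleotide reductase, which is made mainly in S phase, lies at chr2:10260825-10351851 on the plus strand (GRCh37). It stood at 223 and 237 CPM with Vehicle and at 207 and 163 CPM with LY500307. Both treated samples were lower, with a log2 fold change of -0.31 ± 0.13 SE (adjusted p = 0.428 in edgeR). RRM1, the large subunit, was -0.09 with overlapping groups. DUT, the dUTPase that keeps uracil out of DNA, stood at 60.1 and 56.3 CPM with Vehicle and at 53.8 and 92.5 CPM with LY500307, and TK1, thymidine kinase, showed the same arrangement at 27.8 and 26.3 CPM against 25.3 and 40.5 CPM. In both genes LY500307 replicate 1 was the lowest and LY500307 replicate 2 the highest of the 4 samples, so that the log2 fold changes of 0.33 and 0.29 (adjusted p = 0.536 and adjusted p = 0.562 in edgeR) rested on 1 library and became -0.11 and -0.09 without it. TYMS, thymidylate synthase, stood at 288 and 278 CPM with Vehicle and at 285 and 294 CPM with LY500307, a log2 fold change of 0.03. Of the exonic bases of TYMS, 967 of 1613 (60.0%) are also exonic in ENOSF1 on the opposite strand, and the strand setting of the counting is not given in the sources used here, so the value of TYMS is uncertain. C18orf56 shares a further 106 bases, and of the remaining genes only GINS2 shares exonic bases with a neighbour, 3 in all.

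The chromatin and fork protection genes had the lowest median of the 8 role groups, -0.26 over 4 genes. CHAF1A, the large subunit of the histone chaperone CAF-1, stood at 147.5 and 159.7 CPM with Vehicle and at 146 and 104 CPM with LY500307 (-0.30 ± 0.16 SE, adjusted p = 0.452 in edgeR). LY500307 replicate 1 was close to the lower Vehicle sample, and without LY500307 replicate 2 the fold change was -0.08. Its partner CHAF1B had nearly the same difference (-0.29, adjusted p = 0.452 in edgeR). TIPIN, which with TIMELESS protects stalled forks, stood at 46.8 and 46.1 CPM with Vehicle and at 41.8 and 36.97 CPM with LY500307, lower in both treated samples (-0.24 ± 0.12 SE, adjusted p = 0.445 in edgeR). SLBP, which binds the stem-loop of histone mRNAs, was -0.03.

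**Figure D3:**
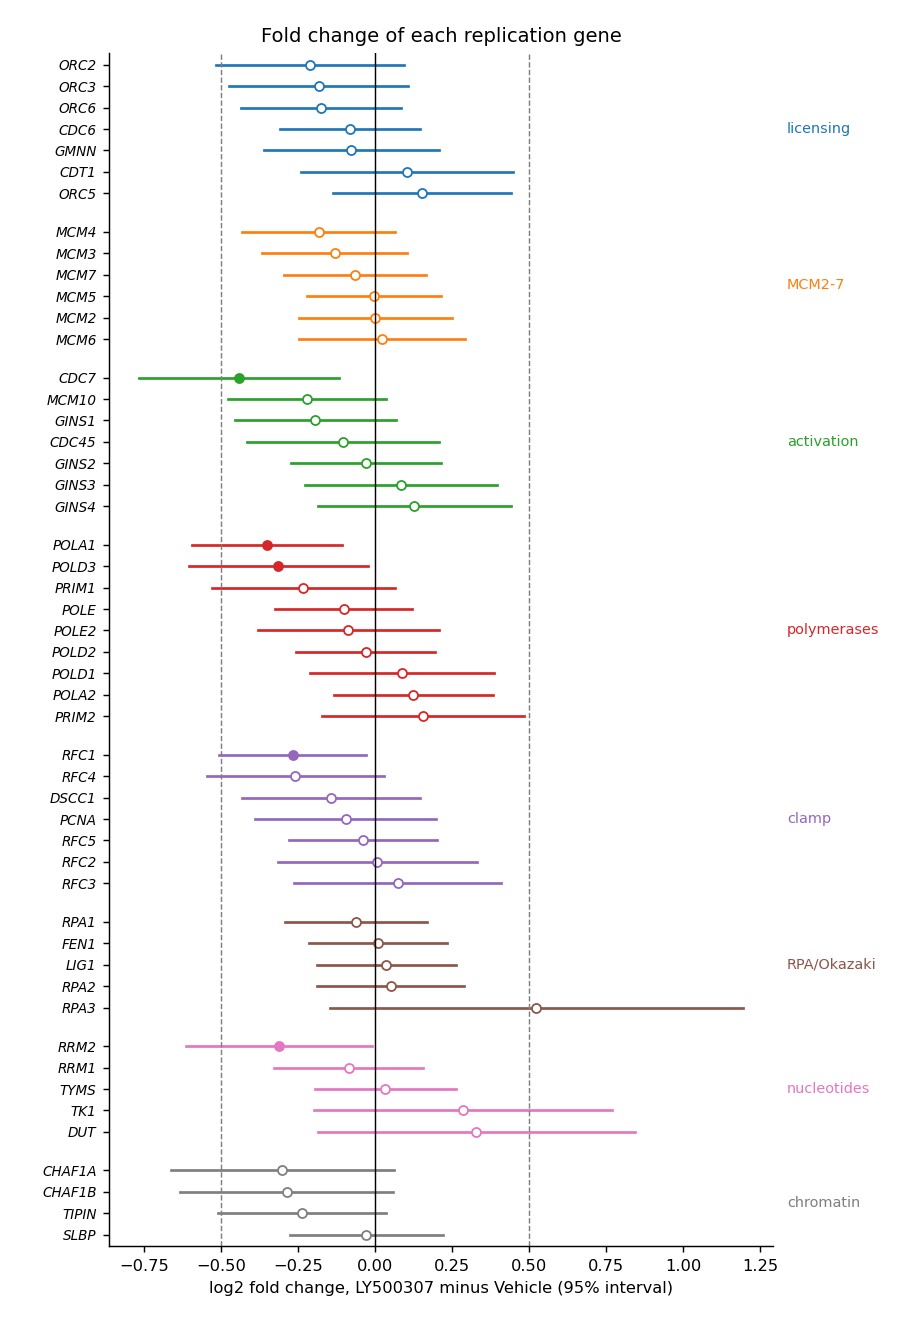
Log2 fold change of each replication gene (LY500307 minus Vehicle) with its 95% interval from edgeR, grouped by role; filled points have an unadjusted p below 0.05, open points do not. The 5 filled points lie between -0.44 and -0.27, and RPA3 has the widest interval, from -0.15 to 1.20.

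The replicates of each group were also set against each other. The log2 ratio of LY500307 replicate 2 to replicate 1 was beyond 0.25 in either direction for 16 of 50 genes (32.0%), against 44.3% of all genes tested. That of the Vehicle samples was so for 4 of 50 (8.0%), against 24.0% of all genes. The 50 genes had at least 243 reads each per sample, while all genes tested include genes with fewer reads and more counting error. These shares are thus not like for like. LY500307 replicate 2 lay below the other 3 samples in 24 of the 50 genes and above them in 16, while LY500307 replicate 1 lay below the others in 14 and above them in 5. Shares over all genes are not given for these counts, so they describe the list alone. Among the 50 genes the ratio of LY500307 replicate 2 to replicate 1 had a Spearman rho of -0.03 with transcript length and of 0.18 with GC content. Over all genes tested with such values (13606 genes), rho was -0.15 with length and 0.23 with GC content. All are given as descriptions over genes that share the same libraries.

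Levels can be set side by side only per length, and RPKM here is CPM per kilobase of 1 reference transcript for each gene, which understates a gene read mainly from a shorter transcript. The mean over the 4 samples was highest for PCNA at 210.5 RPKM, then TYMS at 177 RPKM, MCM7 at 139.9 RPKM, MCM3 at 87.8 RPKM, MCM4 at 86.9 RPKM and POLD2 at 81.9 RPKM. The ranges of MCM3 and MCM4 over the samples overlapped, as did those of MCM4 and POLD2. RPA3 was lowest at 5.70 RPKM, followed by CHAF1B at 9.18 RPKM, POLA1 at 10.3 RPKM and GINS3 at 10.4 RPKM. Among the 50 genes the levels thus spanned from 5.70 to 210.5 RPKM, far more than any difference between the treatments. Within complexes the levels were also unequal. In polymerase δ, POLD2 was at 81.9 RPKM, POLD1 at 28.7 RPKM and POLD3 at 15.5 RPKM, and in polymerase α-primase all 4 subunits lay between 10.3 and 15.5 RPKM.

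**Figure D4:**
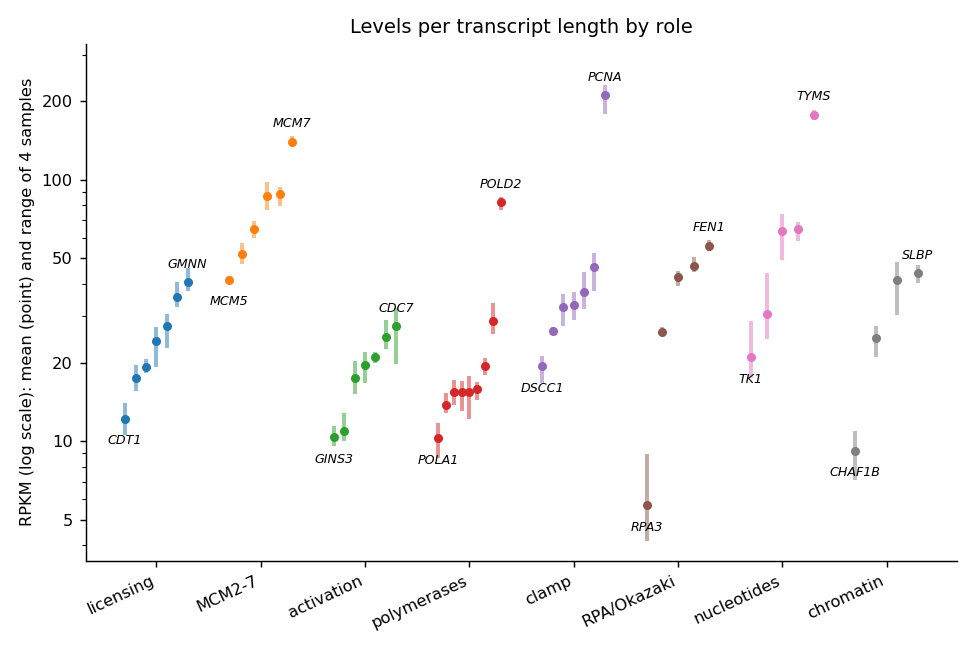
Mean RPKM over the 4 samples for each replication gene (points, log scale) with the range over samples (bars), by role; the lowest and highest gene of each role are named. PCNA, TYMS and MCM7 stand highest and RPA3 lowest.

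Genes of the same pathway outside the 50 were set beside them. Of 42 other replication genes, 11 (26.2%) were lower and 3 higher at an unadjusted p below 0.05 in edgeR, against 5.50% and 6.09% of all genes, and their median log2 fold change was -0.14. DCTPP1, a pyrophosphatase that clears modified deoxycytidine triphosphate, was the one called at the study's criteria, at 21.1 and 22.2 CPM with Vehicle and at 24.95 and 40.7 CPM with LY500307 (0.60, adjusted p = 0.422 in edgeR), and its fold change was 0.21 without LY500307 replicate 2. TOP2A, the topoisomerase that untangles replicated DNA, stood at 662 and 594 CPM with Vehicle and at 510.3 and 515 CPM with LY500307 (-0.29, adjusted p = 0.422 in edgeR).

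Of the 13 other genes grouped under licensing and firing, MCM8 and MCM9 included, 6 (46.2%) were lower at an unadjusted p below 0.05 in edgeR. The share over all genes was 5.50%, and the median log2 fold change of the 13 was -0.25. The following genes were chosen after their values were seen. DBF4, the activating subunit of CDC7, had nearly the same log2 fold change as CDC7 itself, -0.44 (adjusted p = 0.422 in edgeR), from 66.4 and 70.7 CPM with Vehicle to 57.2 and 43.8 CPM with LY500307. MCM8 (-0.44), which works in break repair and elongation, TOPBP1 (-0.26) and TICRR (-0.25), which help load CDC45, DONSON (-0.25), a part of the helicase assembly step, and WDHD1 (-0.27), which tethers polymerase α to the helicase, were the other 5. ATAD5, which unloads PCNA, had a log2 fold change of -0.40 (adjusted p = 0.422 in edgeR), and CLSPN, the checkpoint mediator claspin, one of -0.44 (adjusted p = 0.422 in edgeR). ATAD5 was the 1 lower gene among the 6 other polymerase and clamp loader subunits, whose median was 0.12. CHTF8 was the 1 higher gene of that group, above Vehicle in both LY500307 samples (0.32, adjusted p = 0.428 in edgeR). Of the 6 other nucleotide supply genes 0 were lower and 2 were higher, DCTPP1 and RRM2B (0.25), the p53-responsive partner of RRM1. The number of lower genes among the 42 was 2 without Vehicle replicate 1 (background 1.91%), 1 without Vehicle replicate 2 (2.16%), 15 without LY500307 replicate 2 (8.14%) and 21 without LY500307 replicate 1 (20.6%).

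Entry into S phase is governed by cyclins, E2F factors and their inhibitors. Of 20 such regulators 0 were lower and 1 (5.0%) was higher at an unadjusted p below 0.05 in edgeR, against 5.50% and 6.09% of all genes, with a median of -0.02. The higher one was CDKN1A, at 265 and 274 CPM with Vehicle and at 418 and 473 CPM with LY500307, a log2 fold change of 0.73 (adjusted p = 0.422 in edgeR). Its groups were well apart, and it was the one of the 20 called at the study's criteria. DESeq2 passed it at an adjusted p of 0.05, the only one of the 20 to do so. E2F1 stood at 37.8 and 46.3 CPM with Vehicle and at 41.2 and 45.5 CPM with LY500307 (0.04), CCNE2 at 8.54 and 8.76 CPM against 8.21 and 9.65 CPM (0.05), and CCNA2, the S phase cyclin, at 132 and 134 CPM against 125 and 123 CPM (-0.10, adjusted p = 0.647 in edgeR). E2F1 and CCNE2 overlapped between the groups, while CCNA2 was lower in both treated samples.

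The mitosis genes, which are transcribed later in the cycle, were the last list compared. Of 25, 14 (56%) were lower and 0 higher at an unadjusted p below 0.05 in edgeR, with a median of -0.28, beside 5 of 50 and -0.07 for the replication genes; the difference between the lists was not tested. CENPE, the kinetochore motor, was the one called at the study's criteria, at 192 and 187 CPM with Vehicle and at 148 and 106 CPM with LY500307 (-0.58, adjusted p = 0.422 in edgeR). The 14 became 3 without Vehicle replicate 1 (background 1.91%), 1 without Vehicle replicate 2 (2.16%), 16 without LY500307 replicate 1 (20.6%), 18 without LY500307 replicate 2 (8.14%) and 9 with a correction for GC content (5.05%).

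**Figure D5:**
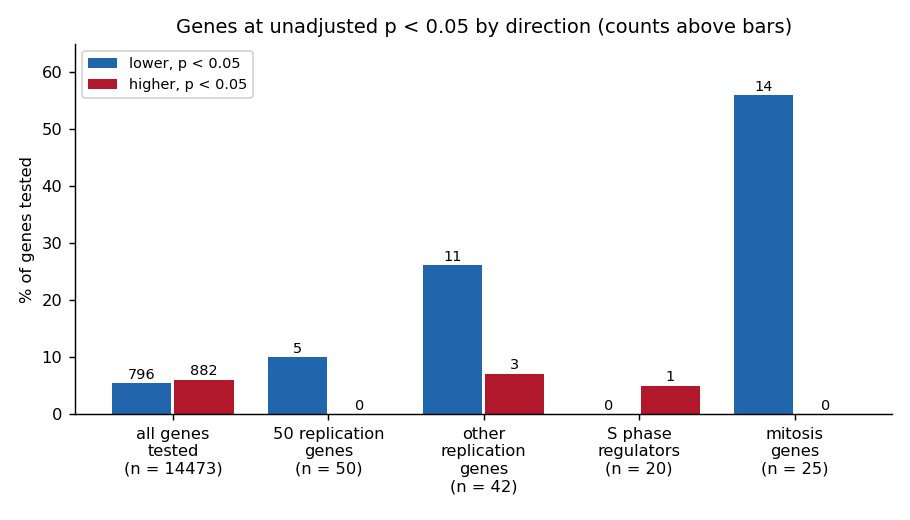
Share of genes (vertical axis, %) with an unadjusted p below 0.05 that were lower (blue) or higher (red) with LY500307, for all genes tested and for each list, with counts above the bars. The share of lower genes is 10% for the 50 replication genes, 26.2% for the other replication genes and 56% for the mitosis genes, against 5.50% of all genes.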

How the data were processed

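RNA-seq of 4 samples was used, 2 with Vehicle and 2 with LY500307. Per the labels, the authors sorted ALDH+ cells, made TruSeq libraries (total RNA in the labels, stranded mRNA in the study's methods), read single ends of 50 bases, demultiplexed them with bcl2fastq, aligned them to hg19 with TopHat2 2.0.8b and counted them with HTSeq. The deposited files hold raw read counts per gene symbol, not normalized, with 5 tally lines that made up between 50.0% and 54.4% of all reads listed. These lines stayed out of library sizes and tests. Reads placed at several sites (32.3% to 33.4%) are among them, so genes with close copies may be undercounted. The counting strand is not given in the sources used here.

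The test was edgeR 4.0.16's quasi-likelihood test under R 4.3.3, with TMM scaling, the filterByExpr filter and Benjamini-Hochberg adjustment over the 14473 genes tested. The call rule (unadjusted p under 0.05, log2 fold change beyond 0.5 in size) is that of the study's methods, which used DESeq2; DESeq2 1.42.0 was run as an alternative. The fit held no covariate, and SE and 95% intervals come from it. The method was run on simulated counts with equal spread in both groups and larger changes than those of the replication genes. That run does not show how it performs on the smaller changes and unequal spread found here.

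The 50 genes, their role groups and the other lists were chosen with earlier results of these data known. In each role group the text gives sample values for the gene with the smallest p, the highest mean CPM and the largest positive fold change; of the other lists it gives genes past the call rule plus CDKN1A, CCNE2, E2F1, TOP2A and CCNA2. Length, GC content and overlaps came from canonical transcripts of GENCODE 44 on GRCh37, to which 85.0% of symbols were matched, 2150 by an older symbol and all 50 replication genes. Of the genes tested, 852 had no GC value and stayed uncorrected. Promoter windows came from RefSeq, and exact letters were searched on both strands in Python 3.11.15.

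The alternatives were DESeq2, DESeq2 size factors in edgeR, library totals, no filter, at least 10 counts in every sample, a replicate block, GC and length corrections (loess, span 0.3, prior count 2), the block with the GC correction, and leaving out each sample in turn. Their use on the other lists was added after the data were seen. Per-sample depth was 28841701 to 34943882 counted reads, and the scaling factors lay between 0.986 and 1.03.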

Additional observations from a re-analysis of the deposited data

How the results depend on the processing

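No replication gene passed the call rule in any fit with all 4 samples. For all genes, 669 were called (59.8% higher); the share higher was 50.3% with the GC correction, 48.8% with the length correction, 46.1% with the block and GC correction and 69.7% with library totals. Leaving out 1 sample gave between 352 and 1987 genes called and between 0 and 5 replication genes called; the 5 (10%) came without LY500307 replicate 1, where 13.3% of all genes were called. The 5 replication genes with lower values became 2 with the GC correction (4.0%, against 5.05% of all genes), 8 with the length correction (16.0% against 5.43%), 3 with the block and GC correction (6.0% against 5.11%), 4 (8.0%) with library totals or the replicate block (against 4.10% and 5.52%), and between 0 and 15 without 1 sample (0.0 to 30.0%, against 1.91 to 20.6%). The median of -0.07 became -0.032 with library totals, where the median of all genes was 0.039, -0.092 with the length correction, and between -0.081 and -0.050 without 1 sample. The 11 lower genes among the other replication genes became 7 with library totals, and between 1 and 21 without 1 sample. The 14 lower mitosis genes became 9 with the GC correction, 7 with the block and GC correction and between 1 and 18 without 1 sample, and the 0 lower S phase regulators between 0 and 3. For these other lists too, the shares of all genes lower in each fit are those given above beside the replication genes. Causes were not tested.

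The labels do not say whether samples with the same replicate number were paired. Same-numbered deviations correlated at -0.07 over all genes tested and at -0.23 over genes above the median in mean expression. Both values were negative, but correlations from so few libraries cannot show whether the samples were paired. Under the replicate block 717 genes were called, the unadjusted p of RFC1 was no longer below 0.05, and the smallest adjusted p among the replication genes was 0.25.

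The log2 fold changes of some genes near 0, or resting on 1 sample, changed sign. With the GC correction these were CDT1 (-0.047), E2F1 (-0.078), FEN1 (-0.066), LIG1 (-0.061), MCM2 (-0.077), POLD1 (-0.070), RFC2 (-0.071) and RFC5 (0.008), and with the block and GC correction CDT1 (-0.043), E2F1 (-0.071), FEN1 (-0.066), LIG1 (-0.061), MCM2 (-0.076), POLD1 (-0.072), RFC2 (-0.069) and RFC5 (0.008). With the length correction they were FEN1 (-0.046), MCM5 (0.020), RFC2 (-0.070), RPA2 (-0.029) and TYMS (-0.048), with library totals GINS2 (0.009), MCM5 (0.035), POLD2 (0.008) and SLBP (0.010), and with the replicate block MCM2 (-0.001). Without 1 sample the ranges crossed 0 for CCNE2 (-0.073 to 0.16), CDC45 (-0.24 to 0.049), CDT1 (-0.039 to 0.24), DUT (-0.11 to 0.67), E2F1 (-0.095 to 0.20), FEN1 (-0.033 to 0.056), GINS2 (-0.062 to 0.003), GINS3 (-0.003 to 0.17), GINS4 (-0.034 to 0.28), GMNN (-0.19 to 0.049), MCM2 (-0.081 to 0.083), MCM5 (-0.029 to 0.026), MCM6 (-0.077 to 0.12), PCNA (-0.26 to 0.060), POLD1 (-0.092 to 0.25), POLD2 (-0.088 to 0.029), RFC2 (-0.14 to 0.17), RFC3 (-0.15 to 0.27), RPA2 (-0.012 to 0.11), RPA3 (-0.013 to 0.92), SLBP (-0.12 to 0.060) and TK1 (-0.090 to 0.59).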

Other observations

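Genes that lie within or beside replication genes were counted too. MIR25, whose hairpin lies in an intron of MCM7, had 17 and 20 reads with Vehicle and 17 and 44 with LY500307, while MCM7 itself stood at 349 and 357 CPM and at 334 and 341 CPM. MIR106B of the same host had 0 reads in 3 samples and 7 in LY500307 replicate 2, and MIR93 had 1 and 9 reads with Vehicle and 0 with LY500307. Such short genes carry few reads in these libraries, and reads of the unspliced host cannot be told apart from those of the hairpins. ENOSF1, which shares exonic bases with TYMS on the other strand, had 2037 and 1871 reads with Vehicle and 1933 and 1998 with LY500307, so its groups overlapped. C18orf56, beside TYMS, had 109 and 115 reads with Vehicle and 111 and 206 with LY500307, with LY500307 replicate 2 alone standing high, the same sample that stood high for DUT, TK1 and RPA3.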
